A study of Mus musculus with 12 samples.

Results

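The 9 genes described here belong to the cell's defence against oxidative damage and to ferroptosis: Nfe2l2, which encodes the transcription factor NRF2, its classical targets Srxn1, Txnrd1 and Nqo1, the cystine and glutathione genes Slc7a11, Gclc and Gclm, and the ferroptosis genes Gpx4 and Acsl4. They were selected by gene symbol from a list drawn up with earlier results of these data known, so the counts of called genes below describe a set that was not chosen blind to the data. All 9 of 9 were found among the 23238 gene symbols of the count tables, each on a line of its own, and all 9 passed the expression filter that kept 16484 genes for testing. RNA sequencing had been done on total RNA of mouse lung in 12 samples, 3 without irradiation (NoIR) and 3 each on days 8, 11 and 14 after irradiation (IR_8d, IR_11d and IR_14d). The irradiated samples were taken only from the parts of the lung that had been irradiated. Dose, radiation source, strain, sex, age, genotype, and the place from which unirradiated tissue came were not given in the sources used here. Samples carry replicate numbers but are not called separate animals, so a p-value below stands for spread among these 12 samples alone, part or all of which may be technical.

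NRF2 is held in the cytoplasm by KEAP1, which directs it to degradation. When oxidants or electrophiles modify KEAP1, NRF2 accumulates, pairs with a small MAF protein and binds antioxidant response elements in its target genes, so its activity is set largely at the protein level. Glutathione is made from cysteine, which many cells import as cystine through the transporter SLC7A11, and its first and limiting step is run by an enzyme with a catalytic subunit (GCLC) and a modifier subunit (GCLM). GPX4 uses glutathione to reduce peroxidised membrane lipids, and ferroptosis is the iron-dependent cell death that follows when this repair fails, a death to which ACSL4 sensitises cells by loading polyunsaturated fatty acids into membranes.

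Every unirradiated library was deeper than every irradiated one. Total counts were 26164354 to 27765751 without irradiation, 20792968 to 22660158 on day 8, 19624554 to 24502421 on day 11 and 22615862 to 25524425 on day 14. The tissue label was borne out by lung markers, with 10300 to 23000 CPM (counts scaled to library size) of the surfactant gene Sftpc and 1530 to 3860 CPM of the alveolar type 1 gene Ager over the 12 libraries. Of the 3 libraries on day 11, replicate 1 stood apart in macrophage markers, with 155 CPM of Adgre1 against 73 and 82.4 CPM in the others, and values without it are given for the 9 genes and for Hmox1 on day 11. Counts per library ran from 84 for Nqo1 to 11436 for Gpx4 among the 9 genes.

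Promoter sequence is shown first, because NRF2 acts through short DNA elements that often lie near the start of its target genes. RefSeq promoters (GRCm38.p6) were matched by symbol for 8 of the 9 genes, all but Gclc, in 13 windows of 250 bases before an annotated start. Both strands were searched for TGACNNNGC, one form of the core of the antioxidant response element, and for TGANTCA, the AP-1 core. TGANTCAGC, in which the AP-1 core runs into GC, was searched for as well. Of all 32851 windows of this length, 10.2% hold TGACNNNGC, 6.75% hold TGANTCA and 1.02% hold TGANTCAGC. The 4 windows below are those of the 9 genes in which a motif was found, printed 5′ to 3′ on the gene's strand with the motifs in capitals. They are Srxn1 at chr2:152105274-152105523 (plus strand), Txnrd1 at chr10:82858956-82859205 (plus strand, one of 3 annotated starts), Gclm at chr3:122245307-122245556 (plus strand) and Nfe2l2 at chr2:75704664-75704913 (minus strand).
Srxn1: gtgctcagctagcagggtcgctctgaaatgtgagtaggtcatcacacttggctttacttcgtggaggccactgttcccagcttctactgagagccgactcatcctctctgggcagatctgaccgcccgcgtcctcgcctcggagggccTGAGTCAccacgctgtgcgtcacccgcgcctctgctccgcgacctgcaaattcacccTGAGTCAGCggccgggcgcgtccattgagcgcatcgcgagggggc
Txnrd1: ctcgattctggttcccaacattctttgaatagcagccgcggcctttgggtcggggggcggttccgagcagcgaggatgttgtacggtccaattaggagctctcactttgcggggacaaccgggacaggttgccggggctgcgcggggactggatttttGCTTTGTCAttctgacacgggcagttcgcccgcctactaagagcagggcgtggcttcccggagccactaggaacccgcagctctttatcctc
Gclm: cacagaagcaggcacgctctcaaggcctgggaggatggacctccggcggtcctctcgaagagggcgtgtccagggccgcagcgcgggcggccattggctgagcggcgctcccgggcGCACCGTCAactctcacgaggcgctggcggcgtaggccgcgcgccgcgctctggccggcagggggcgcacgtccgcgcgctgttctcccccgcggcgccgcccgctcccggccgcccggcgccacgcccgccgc
Nfe2l2: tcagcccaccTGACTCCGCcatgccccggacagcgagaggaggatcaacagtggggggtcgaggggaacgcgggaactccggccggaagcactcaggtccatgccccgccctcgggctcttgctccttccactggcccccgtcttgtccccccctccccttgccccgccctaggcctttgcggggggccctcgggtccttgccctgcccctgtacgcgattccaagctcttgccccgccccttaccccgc

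In Srxn1 TGAGTCA lies 102 to 96 bases before the start and again at 45 to 39 bases, where it is followed by GC and so also counts as TGAGTCAGC. TGAGTCAGC differs from TGACNNNGC only in having G in place of the first C. The window of Srxn1 therefore cannot be said to lack a response element. TGANTCA reads the same on both strands. In Nfe2l2 TGACTCCGC lies 240 to 232 bases before the start. In Txnrd1 the response element core is on the opposite strand, printed as GCTTTGTCA, 92 to 84 bases before the start. Gclm holds it on the opposite strand as well, printed as GCACCGTCA, 134 to 126 bases before the start. No match was found in the windows of Nqo1, Slc7a11, Gpx4 and Acsl4, which says only that these letters are not in those windows. A match here describes the sequence and does not show that a protein binds it.

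Irradiated lung had more RNA of several of these genes at every time, and none of the 9 was called lower. A call here means an adjusted p below 0.05 in edgeR's quasi-likelihood test, with n = 3 per group and Benjamini-Hochberg adjustment over all 16484 genes. On day 8, 4 of the 9 were called higher (Srxn1, Txnrd1, Gclc and Acsl4), where 13% of all tested genes were called higher and 10.6% lower. On day 11, 6 of the 9 were called higher, with Nfe2l2 and Slc7a11 added, against 19.4% higher and 17.8% lower over all genes. On day 14, 5 of the 9 were called higher, the 4 of day 8 and Nfe2l2, against 20% higher and 18.9% lower. The median log2 change of the 9 genes was 0.31, 0.54 and 0.32 on days 8, 11 and 14, and that of all tested genes was 0.01, -0.01 and 0.01. All 3 comparisons share the same unirradiated libraries.

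**Figure D1:**
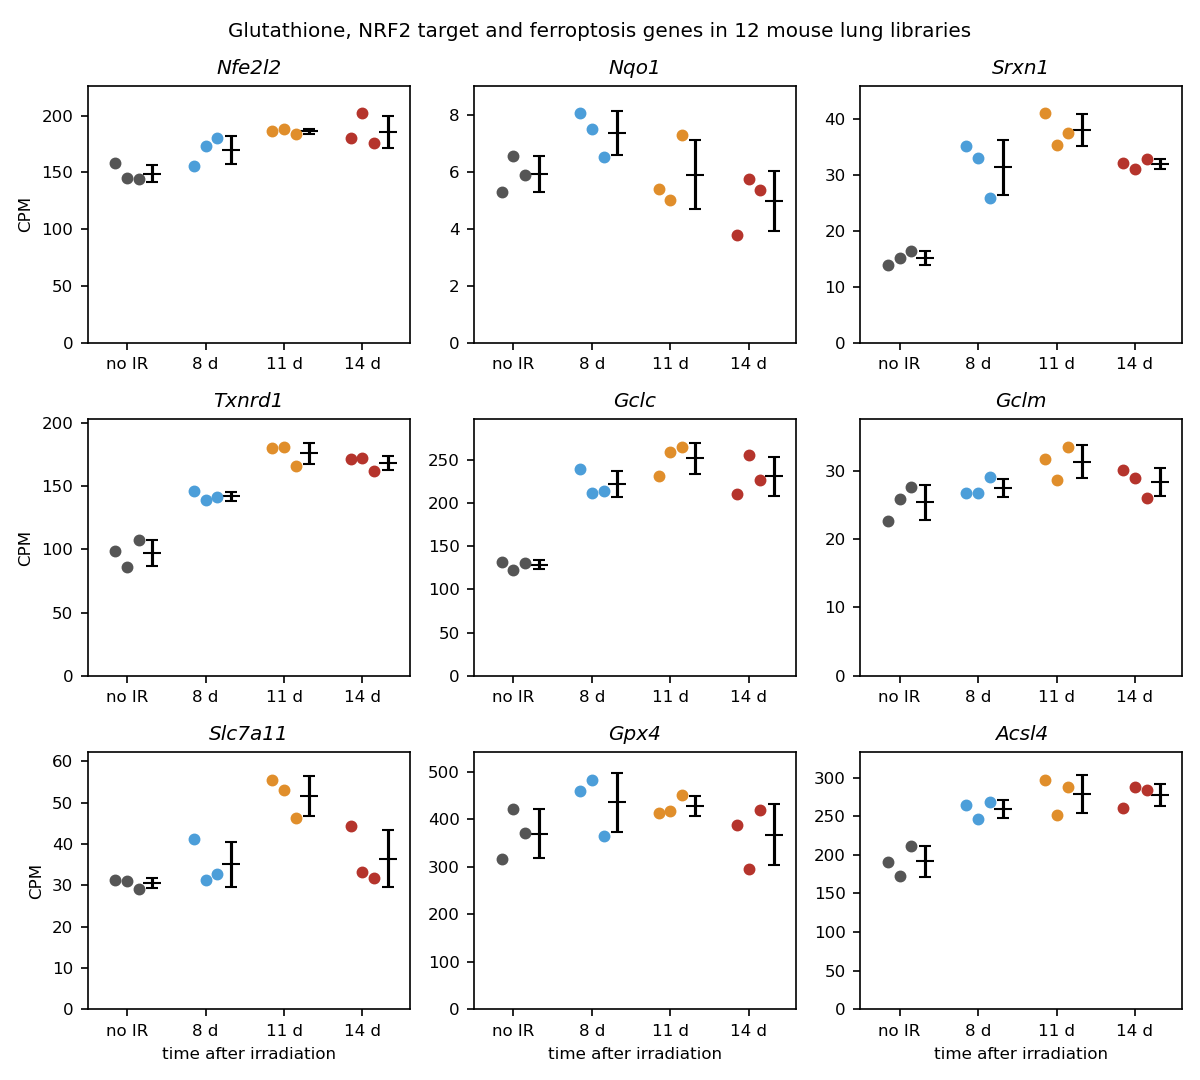
Level of each gene in CPM (y axis, starting at 0 and scaled for each gene) in the 12 libraries, by group (x axis, no irradiation, day 8, day 11 and day 14). Points are libraries and bars are means with SD (n = 3); the irradiated points of Srxn1, Txnrd1, Gclc, Slc7a11 and Acsl4 all lie above the unirradiated ones, and those of Gpx4 and Nqo1 do not.

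Nfe2l2 (mm10 chromosome 2, 75675513 to 75704641, minus strand) had small changes. It stood at 158, 145 and 144 CPM without irradiation, 156, 173 and 180 CPM on day 8, 187, 188 and 184 CPM on day 11, and 180, 202 and 176 CPM on day 14. All libraries of day 11 and day 14 lay above the highest unirradiated one, while day 8 replicate 1 lay inside the unirradiated range. The share of all genes that separate in this way at a single time is not given here. For Nfe2l2 and the genes below, such statements describe the libraries and add nothing to the test. The log2 change was 0.19 on day 8 (SE 0.11, edgeR adjusted p = 0.245), 0.32 on day 11 (SE 0.11, adjusted p = 0.0318) and 0.32 on day 14 (SE 0.11, adjusted p = 0.0315). These calls were narrow. On day 11 the call was lost without unirradiated replicate 2 or 3 (adjusted p = 0.0897 and 0.0912) and without day 11 replicate 1, 2 or 3 (0.0745, 0.076 and 0.0681). On day 14 it was lost without unirradiated replicate 2 or 3 (0.0921 and 0.0924) and without day 14 replicate 1 or 2 (0.0593 and 0.117), with log2 changes that stayed between 0.25 and 0.36 over the 21 alternative settings and left-out libraries.

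Srxn1 had the highest log2 change of the 9 genes at each time. It encodes sulfiredoxin, which repairs overoxidised peroxiredoxins, and lies on chromosome 2 at 152105524 to 152111376 (plus strand). Its levels were 13.8, 15.1 and 16.3 CPM without irradiation, 35.1, 32.9 and 25.8 CPM on day 8, 40.9, 35.3 and 37.5 CPM on day 11, and 32, 31 and 32.8 CPM on day 14. The lowest irradiated library, day 8 replicate 3, was still well above the highest unirradiated one. The change was 2.07-fold on day 8 (log2 1.05, SE 0.14, edgeR adjusted p = 0.000104), 2.52-fold on day 11 (log2 1.33, SE 0.14, adjusted p = 7.19e-06) and 2.12-fold on day 14 (log2 1.08, SE 0.14, adjusted p = 2.26e-05). Without day 11 replicate 1, its highest library, the log2 change on day 11 was 1.27. These are whole-tissue samples, in which a change in the share of a cell type and a change of RNA per cell cannot be told apart, for Srxn1 as for every gene below.

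Txnrd1, the cytosolic thioredoxin reductase (chromosome 10, 82833951 to 82897712, plus strand), rose at all 3 times. It measured 98.4, 85.9 and 107 CPM without irradiation, 146, 139 and 141 CPM on day 8, 180, 181 and 166 CPM on day 11, and 171, 172 and 162 CPM on day 14. The groups were tight after irradiation, and the day 8 libraries lay between the unirradiated ones and those of day 11 and day 14 without overlap. The change from unirradiated lung was 1.47-fold on day 8 (log2 0.55, SE 0.11, edgeR adjusted p = 0.00243), 1.81-fold on day 11 (log2 0.86, SE 0.11, adjusted p = 4.29e-05) and 1.73-fold on day 14 (log2 0.79, SE 0.11, adjusted p = 5.41e-05). The step from day 8 to day 11 did not pass the test (log2 0.30, SE 0.11, adjusted p = 0.184), nor did that from day 8 to day 14 (log2 0.24, adjusted p = 0.169).

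Nqo1, a quinone reductase widely used as a marker of NRF2 activity, had no called change. Its locus is on mm10 chromosome 8, 107388225 to 107403206 (minus strand). Its libraries read 5.31, 6.57 and 5.89 CPM without irradiation, 8.06, 7.52 and 6.54 CPM on day 8, 5.41, 5.02 and 7.31 CPM on day 11, and 3.78, 5.77 and 5.38 CPM on day 14. Irradiated and unirradiated libraries overlapped at each time, with 3 of the 9 irradiated libraries above all unirradiated ones and 2 below them. The log2 change was 0.31 on day 8 (SE 0.20, 95% interval -0.11 to 0.74), -0.01 on day 11 (interval -0.44 to 0.43) and -0.25 on day 14 (interval -0.68 to 0.18), with edgeR adjusted p = 0.285, 0.985 and 0.365. From day 8 to day 14 the log2 difference was -0.56 (SE 0.20, adjusted p = 0.0774). With 84 to 178 counts per library it was the least deeply counted of the 9.

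**Figure D2:**
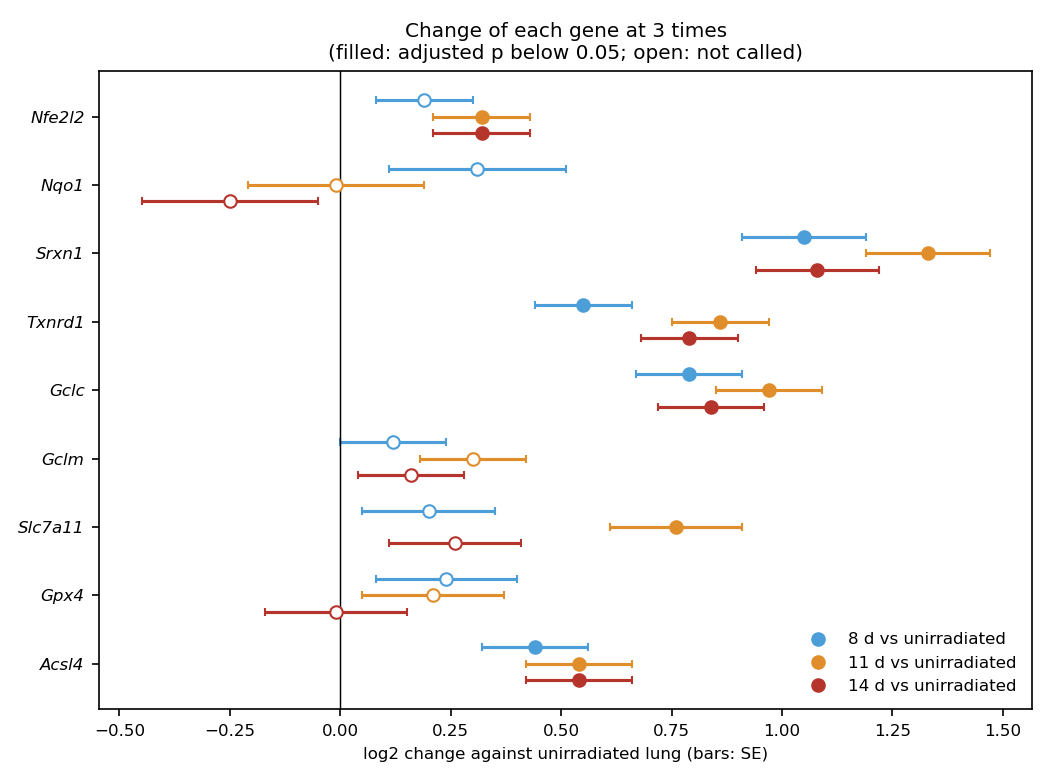
Log2 change of each gene against unirradiated lung on days 8, 11 and 14 (x axis) with its SE (bars), filled where called. Srxn1, Gclc, Txnrd1 and Acsl4 lie above 0 at all 3 times, Slc7a11 is highest on day 11 with 0.76, and Gpx4, Gclm and Nqo1 have no called change.

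In glutathione synthesis the catalytic subunit rose and the modifier subunit was not called. Gclc (chromosome 9, 77754535 to 77794485, plus strand) stood at 132, 123 and 131 CPM without irradiation, 239, 212 and 214 CPM on day 8, 231, 259 and 265 CPM on day 11, and 210, 255 and 227 CPM on day 14. No irradiated library came near the unirradiated range. The change was 1.72-fold on day 8 (log2 0.79, SE 0.12, edgeR adjusted p = 0.000274), 1.96-fold on day 11 (log2 0.97, SE 0.12, adjusted p = 2.39e-05) and 1.79-fold on day 14 (log2 0.84, SE 0.12, adjusted p = 4.83e-05). Gclm (chromosome 3, 122245557 to 122270732, plus strand) stood at 22.6, 25.9 and 27.6 CPM without irradiation, 26.8, 26.7 and 29 CPM on day 8, 31.7, 28.7 and 33.5 CPM on day 11, and 30.1, 28.9 and 26 CPM on day 14. Its groups overlapped on day 8 and day 14, and its log2 change was 0.12 (95% interval -0.15 to 0.38), 0.30 (0.04 to 0.57) and 0.16 (-0.10 to 0.43), with edgeR adjusted p = 0.538, 0.0679 and 0.337. DESeq2 alone called Gclm on day 11 (adjusted p = 0.0479).

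The ratio of Gclc to Gclm counts within a library, a comparison chosen after the values were seen and not tested, was 5.11 ± 0.63 without irradiation (SD, n = 3), 8.08 ± 0.788 on day 8, 8.07 ± 0.886 on day 11 and 8.18 ± 1.04 on day 14. The unirradiated libraries spanned 4.75 to 5.84 and the irradiated ones 6.99 to 9.02, so the 2 ranges did not meet.

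Slc7a11, the cystine-glutamate exchanger subunit (chromosome 3, 50364938 to 50443611, minus strand), had its highest levels on day 11. It read 31.2, 31.1 and 29.1 CPM without irradiation, 41.3, 31.3 and 32.6 CPM on day 8, 55.5, 53 and 46.3 CPM on day 11, and 44.4, 33.2 and 31.7 CPM on day 14. All 9 irradiated libraries were above all unirradiated ones, but on day 8 and day 14 most of the gap came from 1 library in each group, replicate 1. The change on day 11 was 1.7-fold (log2 0.76, SE 0.15, edgeR adjusted p = 0.00139), and log2 0.71 without day 11 replicate 1. The log2 change was 0.20 on day 8 (95% interval -0.12 to 0.53, adjusted p = 0.369) and 0.26 on day 14 (interval -0.07 to 0.58, adjusted p = 0.202). The differences between times were not called by edgeR, with a log2 difference of 0.56 from day 8 to day 11 (SE 0.15, adjusted p = 0.0745) and -0.50 from day 11 to day 14 (SE 0.15, adjusted p = 0.114). DESeq2 called both (adjusted p = 0.0156 and 0.0454). The annotated Slc7a11 transcript, of 9223 bases, holds a stretch of 373 bases that is 96% identical to the tubulin gene Tuba1a, so reads from that stretch are uncertain.

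Gpx4, the phospholipid hydroperoxide peroxidase that blocks ferroptosis (chromosome 10, 80053488 to 80056439, plus strand), showed no called change. Its levels were 317, 422 and 371 CPM without irradiation, 459, 483 and 365 CPM on day 8, 414, 418 and 452 CPM on day 11, and 387, 296 and 420 CPM on day 14. The groups overlapped at every time and the unirradiated libraries themselves differed widely. The log2 change was 0.24 on day 8 (95% interval -0.11 to 0.58), 0.21 on day 11 (interval -0.13 to 0.55) and -0.01 on day 14 (interval -0.35 to 0.34), with edgeR adjusted p = 0.323, 0.325 and 0.974. A pseudogene, Gpx4-ps2, is 99.7% identical to the Gpx4 transcript over 733 of its 995 bases, and how the authors treated reads that fit both is not given in the sources used here, so the level of Gpx4 is uncertain.

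Acsl4 lies on chromosome X at 142317993 to 142390535 (minus strand) and encodes the ligase that activates arachidonic and adrenic acid. It stood at 190, 172 and 212 CPM without irradiation, 265, 246 and 268 CPM on day 8, 297, 251 and 288 CPM on day 11, and 261, 288 and 284 CPM on day 14. The lowest irradiated library, with 246 CPM, lay above the highest unirradiated one. The change was 1.36-fold on day 8 (log2 0.44, SE 0.12, edgeR adjusted p = 0.0157), 1.46-fold on day 11 (log2 0.54, SE 0.12, adjusted p = 0.00277) and 1.45-fold on day 14 (log2 0.54, SE 0.12, adjusted p = 0.0025). The day 8 call was lost without unirradiated replicate 1 or 2 (adjusted p = 0.057 and 0.0765) or without day 8 replicate 3 (0.0515).

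Across the whole course 5 of the 9 genes differed among the 4 groups in a joint edgeR test, in which 39.2% of all genes were called. These were Srxn1 (adjusted p = 2.33e-05), Gclc (7.01e-05), Txnrd1 (0.000115), Slc7a11 (0.00501) and Acsl4 (0.00663). For the same 5, all 9 irradiated libraries lay above all 3 unirradiated ones, an arrangement found in 13.6% of tested genes. Of the others, Nfe2l2 had 8 of 9 irradiated libraries above the unirradiated range and Gclm 6. Nqo1 had 3 above it and 2 below it, and Gpx4 3 above and 1 below. The shares of all tested genes with such partial counts are not given here, so these counts are description alone. Srxn1, Txnrd1, Gclc and Acsl4 were called higher at each of the 3 times, which was so for 9.92% of tested genes. Without day 11 replicate 1, the call of Nfe2l2 on day 11 was lost and the other 5 held, with log2 changes of 1.27 for Srxn1, 0.84 for Txnrd1, 1.03 for Gclc, 0.71 for Slc7a11 and 0.49 for Acsl4. The uncalled values without it were 0.05 for Nqo1, 0.29 for Gclm and 0.23 for Gpx4.

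Between the irradiated times edgeR called none of the 9 genes, against 2.14% of all genes from day 8 to day 11, 1.8% from day 11 to day 14 and 15.4% from day 8 to day 14. At an unadjusted p below 0.05 there were 2 genes from day 8 to day 11 (Slc7a11 and Txnrd1), 1 from day 11 to day 14 (Slc7a11) and 2 from day 8 to day 14 (Nqo1 and Txnrd1). DESeq2 called Slc7a11 in the first and second of these comparisons and none in the third, and limma-voom called none. The highest group mean of Srxn1, Txnrd1, Gclc, Gclm and Slc7a11 was that of day 11, but the day 11 to day 14 log2 differences of Srxn1 (-0.25, interval -0.54 to 0.04), Txnrd1 (-0.06, interval -0.30 to 0.17) and Gclc (-0.12, interval -0.37 to 0.12) did not pass the test.

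Set per kilobase of exon, to compare genes with each other, the levels of the 9 genes differed widely and kept much the same order in all groups. Exon lengths were those of GENCODE M21, while the annotation used for counting was not given. The order between genes is therefore approximate, and the level of Gpx4 is also uncertain because of Gpx4-ps2. Gpx4 was highest, with 303 ± 42.9 CPM per kb without irradiation (SD, n = 3). Nfe2l2 followed with 60.2 ± 3.16, then Gclc with 37.6 ± 1.44 and Acsl4 with 36.2 ± 3.79, whose ranges overlapped, and Txnrd1 with 23.8 ± 2.6. Srxn1 (5.36 ± 0.445), Gclm (4.54 ± 0.455), Nqo1 (3.81 ± 0.406) and Slc7a11 (3.3 ± 0.128) were at the low end, and neighbours in this order overlapped, apart from Nqo1 and Slc7a11. After irradiation Gclc parted from Acsl4, with 64.8 ± 4.4 against 49.2 ± 2.26 CPM per kb on day 8 and 73.5 ± 5.3 against 52.8 ± 4.62 on day 11. Srxn1 parted from Gclm in the same way, with 13.5 ± 1 against 5.6 ± 0.434 on day 11.

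**Figure D3:**
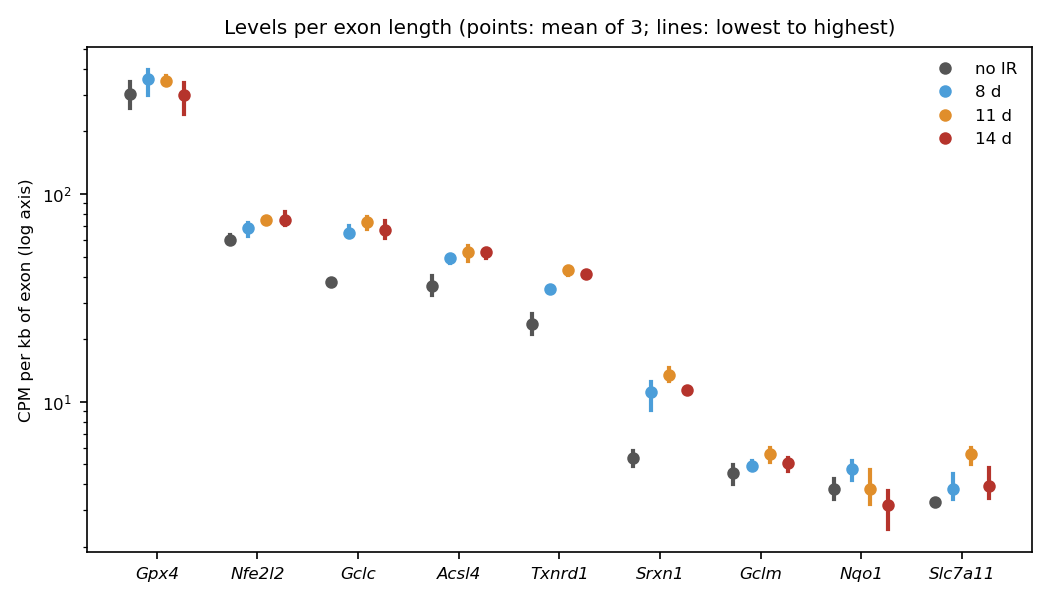
Level of each gene in CPM per kilobase of exon (y axis, log scale) by group, with genes in order of their unirradiated mean. Points are means of 3 libraries and lines run from the lowest to the highest library; Gpx4 is highest in every group, and Slc7a11, with 3.3 CPM per kb, is lowest without irradiation.

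Genes elsewhere in the table with the most similar course were found by the root mean square difference of log2 CPM over the 12 libraries, each gene centred on its own mean, among 11514 genes. The nearest to Srxn1 were Ripk3 (0.104), Psat1 (0.131) and Hdc (0.133). Txnrd1 was nearest to Mapk6 (0.0846), Nup50 (0.0853) and Sp110 (0.0953), and Gclc to Mapk13 (0.109), H2afx (0.117) and Hn1l (0.121). Acsl4 was nearest to Srp72 (0.0802), Nup50 (0.0841) and G3bp2 (0.0842). Slc7a11 had no neighbour as near, with Mxd1 at 0.167, Tatdn2 at 0.169 and Pfkp at 0.172. These distances are not scaled to the spread of each gene. The SD of log2 CPM over the 12 libraries was 0.547 for Srxn1, 0.406 for Gclc and 0.362 for Txnrd1. It was 0.332 for Slc7a11 and 0.253 for Acsl4. Among the 9 genes themselves the nearest pairs were Txnrd1 with Gclc (0.131), Nfe2l2 with Gclm (0.132) and Txnrd1 with Acsl4 (0.149). Nfe2l2 and Gclm both changed little, so a small distance between them does not show a shared course.

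Regulators around NRF2 were also measured. Of 12 (KEAP1 and its ligase partners, the small MAF proteins, BACH1 and others), 1 was called higher and 1 lower on day 8, 2 and 1 on day 11, and 0 and 2 on day 14, against 13% and 10.6%, 19.4% and 17.8%, and 20% and 18.9% of all tested genes, with median log2 changes of -0.04, 0.12 and -0.08. Keap1 stood at 35.3 ± 0.525 CPM without irradiation (SD, n = 3) and had log2 changes of -0.02, -0.06 and -0.05, with edgeR adjusted p = 0.934, 0.728 and 0.802. Btrc, a ligase subunit that can direct NRF2 to degradation, fell by 0.56 on the log2 scale on day 11 and by 0.69 on day 14. Nfe2l1, which encodes a relative of NRF2, fell by 0.58 on that scale on day 14. Trim21, a ubiquitin ligase, rose by 0.56 on day 11. The calls of day 8, Trim21 (log2 0.48) and Bach1 (log2 -0.50), each depended on single libraries. Neither was made without unirradiated replicate 1 or without day 8 replicate 2 or 3, Trim21 was also lost without unirradiated replicate 2 (adjusted p = 0.128), and Bach1 was also lost without day 8 replicate 1. The 2 rises of day 11 became 1 without day 11 replicate 1, and the 0 rises of day 14 became 1 without unirradiated replicate 1 or day 14 replicate 3. Keap1 was singled out after its values were seen.

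Other NRF2 targets included genes called higher and genes called lower. Of 25 tested, 6 were called higher and 4 lower on day 8, 12 and 7 on day 11, and 10 and 8 on day 14, against 13% and 10.6%, 19.4% and 17.8%, and 20% and 18.9% of all tested genes, with median log2 changes of 0.20, 0.29 and 0.29. Hmox1, which degrades haem, rose from 31.1, 33.4 and 39.5 CPM without irradiation to 76.5, 86.1 and 67.1 CPM on day 8, 217, 166 and 152 CPM on day 11, and 117, 124 and 137 CPM on day 14. Its log2 change was 1.14 (SE 0.15, edgeR adjusted p = 0.000138), 2.36 (SE 0.16, adjusted p = 3.27e-07) and 1.86 (SE 0.16, adjusted p = 8.14e-07). Without day 11 replicate 1 the day 11 change of Hmox1 was 2.20 (adjusted p = 8.53e-07). The ferritin genes Ftl1 and Fth1, which store iron, rose on day 11 (log2 1.25 and 1.17) and day 14 (1.40 and 1.18). Their day 8 values of 0.43 and 0.30 were not called. Gstm1, a glutathione transferase, fell at all 3 times, with log2 changes of -1.07, -1.42 and -1.57, and so did Prdx6, a peroxiredoxin, with -1.03, -1 and -1.32. The 6 rises of day 8 became 3 without unirradiated replicate 1 or day 8 replicate 2. Ferritin and glutathione transferase genes have close copies in the genome, so their counts are uncertain.

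**Figure D4:**
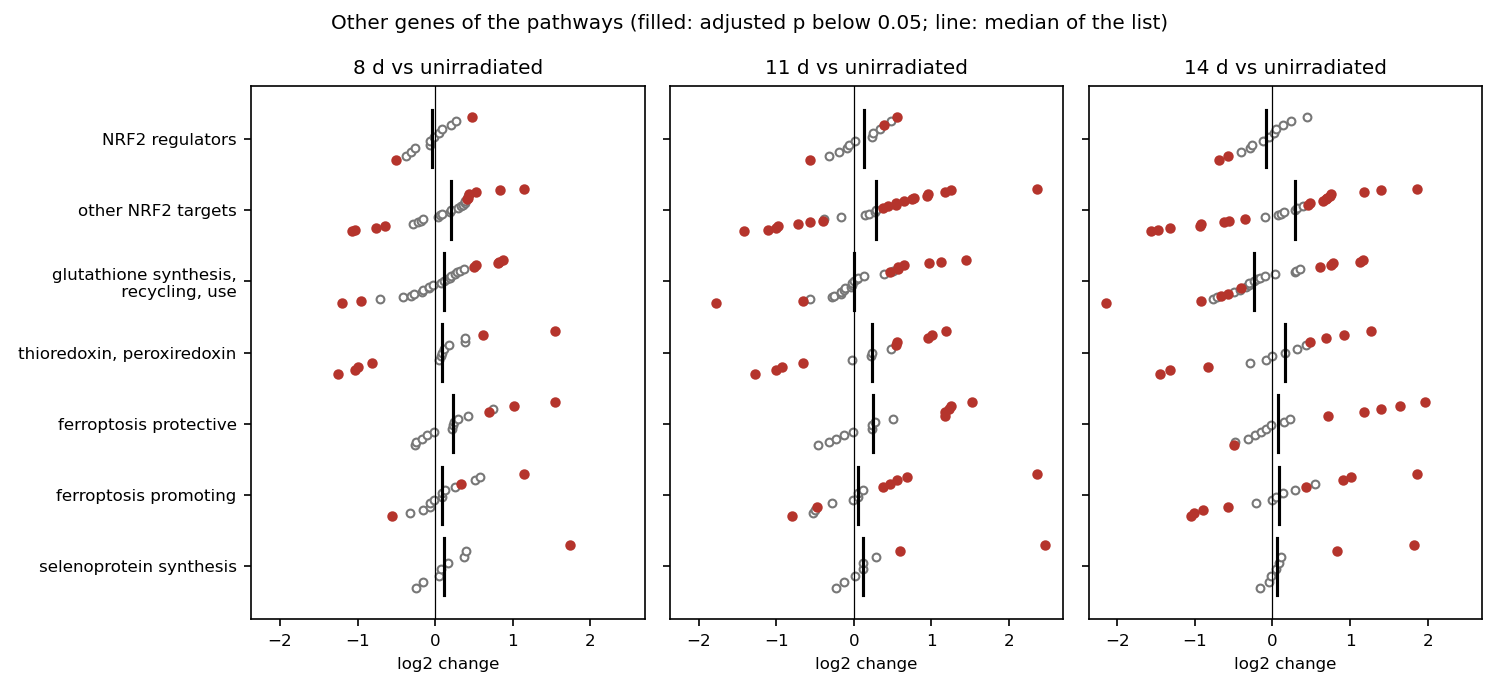
Log2 change against unirradiated lung (x axis) of every tested gene in 7 lists around the 9 genes, by time. Each point is a gene, filled where called, and the short lines are list medians, which lie between -0.24 and 0.29.

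Of 25 genes that make, recycle and use glutathione, 5 were called higher and 2 lower on day 8, 7 and 2 on day 11, and 5 and 5 on day 14, against 13% and 10.6%, 19.4% and 17.8%, and 20% and 18.9% of all tested genes. The medians were 0.12, 0.00 and -0.24, and 1 gene, Gsr, is also in the list of NRF2 targets. The rises included Glrx, a glutaredoxin, with log2 changes of 0.81, 1.45 and 1.13, and Lap3, a peptidase, with 0.82, 1.13 and 1.17. Dpep1, a dipeptidase that cleaves glutathione breakdown products, fell, with log2 changes of -1.20, -1.77 and -2.14. Dpep2 was called lower on day 8 (log2 -0.96), not called on day 11 (-0.12) and called higher on day 14 (0.78). Its day 8 and day 14 calls were made under 18 and 17 of 21 alternatives. Against unirradiated lung Gss, the second enzyme of synthesis, had uncalled log2 changes of 0.32, -0.02 and -0.20. Slc3a2, the heavy chain that partners SLC7A11, had -0.17, -0.04 and -0.34. From day 8 to day 14 Gss was called lower, 1 of 3 such genes of this list, a count that ran from 1 to 4 over the alternatives. The 5 falls of day 14 became 2 without unirradiated replicate 2 and 1 without day 14 replicate 1, and the 2 falls of day 8 became 1 without unirradiated replicate 1 or 2 or day 8 replicate 1. The 2 falls of day 11 became 1 without unirradiated replicate 1 or 2, day 8 replicate 3, day 11 replicate 1 or 3, or day 14 replicate 1. Gss and Slc3a2 were singled out after their values were seen.

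Among 13 thioredoxin and peroxiredoxin genes, 2 were called higher and 4 lower on day 8, 5 and 4 on day 11, and 4 and 3 on day 14, against 13% and 10.6%, 19.4% and 17.8%, and 20% and 18.9% of all tested genes. The medians were 0.09, 0.23 and 0.16, and Txn1, Prdx1 and Prdx6 are also in the list of NRF2 targets. Txnip, the inhibitor of thioredoxin, fell, with log2 changes of -1.25, -0.92 and -0.83, and so did Txnrd3, a relative of Txnrd1, with -0.81, -1.27 and -1.45. Sesn2, a stress-induced sestrin, rose, with log2 changes of 1.54, 1.19 and 1.27. Another sestrin of the list, Sesn1, was called lower on day 8 and day 11 and not called on day 14. Sesn1 was named after its calls were seen. Without unirradiated replicate 1 the rises numbered 1, 3 and 2, and without day 14 replicate 3 those of day 14 numbered 2.

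Of 14 genes that protect from ferroptosis, other than the 9, 3 were called higher and 0 lower on day 8, 5 and 0 on day 11, and 5 and 1 on day 14, against 13% and 10.6%, 19.4% and 17.8%, and 20% and 18.9% of all tested genes. The medians were 0.24, 0.25 and 0.07, and 2 of the rises of days 11 and 14, Fth1 and Ftl1, were already counted among the NRF2 targets. Scd1, which makes monounsaturated fatty acids, rose, with log2 changes of 1.54, 1.53 and 1.96, and so did Gch1, the first enzyme of tetrahydrobiopterin synthesis, with 0.70, 1.23 and 0.72. Of 14 that promote ferroptosis, 2 were called higher and 1 lower on day 8, 5 and 2 on day 11, and 4 and 4 on day 14, with medians of 0.09, 0.05 and 0.08. Hmox1, also an NRF2 target, is 1 of these rises at each time, and the shares over all tested genes are those just given. Ncoa4, the receptor for ferritin degradation, had log2 changes of 0.09, 0.56 and 0.91, called on day 11 and day 14. Alox12, a lipoxygenase, fell by 1.05 on day 14. Without day 11 replicate 1 the promoting genes called higher on day 11 went from 5 to 2 and those called lower from 2 to 0; the day 11 call of Ncoa4 was lost (adjusted p = 0.0626). The 2 rises of day 8 became 1 without unirradiated replicate 1, 2 or 3, day 8 replicate 2, day 11 replicate 2 or 3, or day 14 replicate 1, and Tfrc, the transferrin receptor (log2 0.34 on day 8, adjusted p = 0.0373), was called there under 10 of 21 alternatives. The promoting genes called lower on day 11 went from 2 to 1 without unirradiated replicate 2 or 3 or day 11 replicate 2, and the single protective gene lower on day 14, Fdft1 (named after its value was seen), was lost without unirradiated replicate 3. Of 8 genes for selenoprotein synthesis, which GPX4 and TXNRD1 as selenoproteins require, 1, 2 and 2 were called higher and 0 lower, with the same shares over all genes. Lrp8, a receptor for selenoprotein P, rose, with log2 changes of 1.74, 2.47 and 1.83. Its level was low, with a mean of 1.49 CPM without irradiation and 4.98, 8.28 and 5.32 CPM on days 8, 11 and 14. The second gene called on days 11 and 14 was Sephs2, whose day 11 call was lost without unirradiated replicate 1 or day 11 replicate 1 (adjusted p = 0.0559 and 0.0753).

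Several cell type marker lists moved in the same libraries. Of the 5 ciliated cell markers 0 were called at any time, and of the 6 fibroblast markers 2 were called higher and 3 lower on day 14. Over all tested genes 13% were called higher and 10.6% lower on day 8, 19.4% and 17.8% on day 11, and 20% and 18.9% on day 14. The summed level of 8 macrophage and monocyte markers was 407 to 456 CPM without irradiation, 542 to 694 CPM on day 8, 994 to 1760 CPM on day 11 and 1850 to 2210 CPM on day 14, with 5, 7 and 8 of 8 called higher and 1, Mrc1, called lower on day 8. Its defining gene Adgre1 went from 19.7 to 27.4 CPM to 145 to 184 CPM on day 14. The 6 alveolar macrophage markers found ranged from 1120 to 1370 CPM without irradiation and from 613 to 624 CPM on day 14, although 1 of them, Car4, is also made by capillary endothelium. Members of this list differed, with Marco called higher on days 8 and 11 and Ear2 at 168 to 212 CPM without irradiation and 166 to 231 CPM on day 14. Lymphocyte markers (6 genes) summed to 27.4 to 49.1 CPM without irradiation and to 102 to 147, 106 to 138 and 79.5 to 126 CPM afterwards. The sum of 7 endothelial markers was 3390 to 3720 CPM without irradiation and 2340 to 2490, 1410 to 2020 and 895 to 1140 CPM on days 8, 11 and 14, with 3, 7 and 7 of 7 called lower. Alveolar type 1 markers (6 genes) were 5300 to 5960 CPM without irradiation and 2330 to 2810 CPM on day 14. Club cell markers (5 genes) were 15700 to 28500 and 5080 to 7720 CPM at the same points. The defining markers of these types were above 0 in every library, and the part of these shifts in the changes of the 9 genes, of Hmox1 and of the other lists was not tested.

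**Figure D5:**
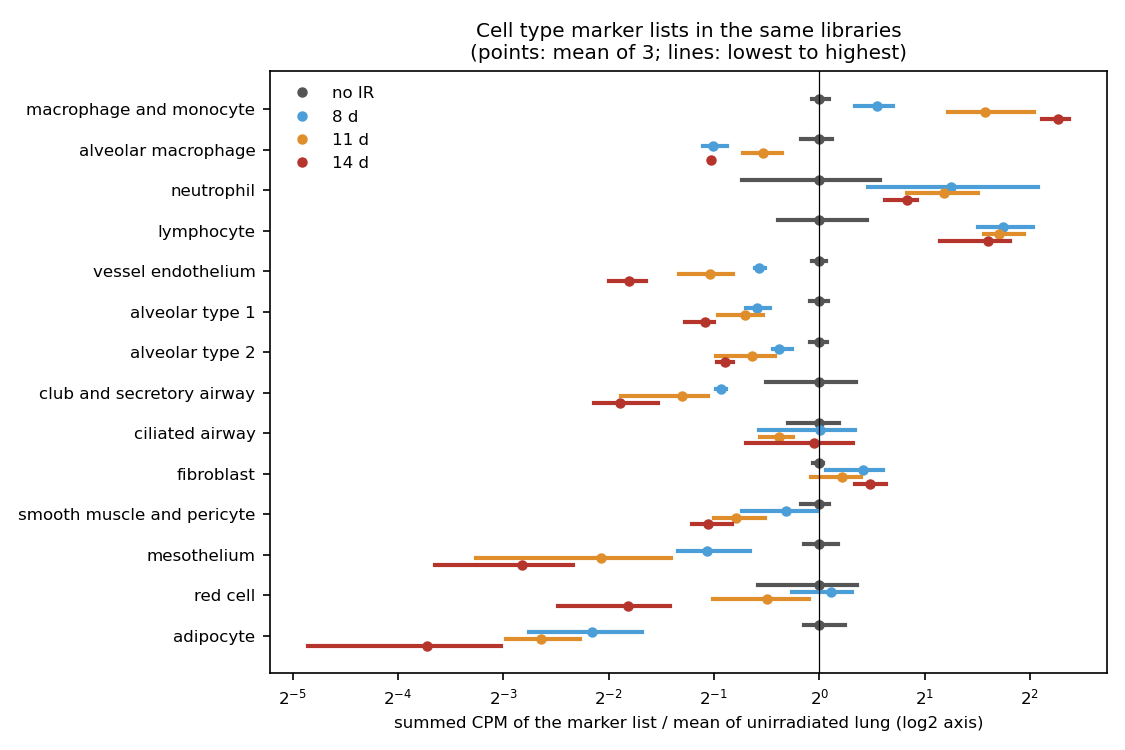
Summed CPM of 14 cell type marker lists relative to the mean of unirradiated lung (x axis, log2 scale). Points are means of 3 libraries and lines run from the lowest to the highest library; macrophage and monocyte markers rise with time and vessel endothelium markers fall.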

How the data were processed

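The NEBNext Ultra II Directional kit was used on Trizol-extracted RNA, per the labels' protocols, and TopHat with mm10 is named in the submitters' processing notes. The authors deposited raw counts per gene symbol for each of 12 samples. The counting program, its annotation, its use of strand and the TopHat version were not given in the sources used here. Lines that repeat a symbol (79 lines, 35 symbols) were added up. Library totals ran from 19624554 to 27765751.

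Counts were tested in R 4.3.3 by edgeR 4.0.16 (quasi-likelihood F), in one fit of all 12 libraries in 4 groups, with TMM scaling and the default filter, which removed 6754 symbols. Adjusted p-values are Benjamini-Hochberg over 16484 genes, SE is the absolute log2 change over the square root of F, and intervals are 95% and not adjusted. CPM use scaled library sizes. Alternatives were other scalings and filters, removal of Rn45s and haemoglobin genes, a replicate block, DESeq2 1.42.0, limma-voom 3.58.1, fits restricted to 2 groups, and the omission of each library.

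The 9 genes and the lists were chosen with earlier results of these data known. Named genes are the 9, up to 4 per list with the lowest joint p, and for each of the 9 called in the joint test the 3 genes nearest in pattern with a mean of at least 5 CPM; others are said to be chosen later. Coordinates and exon lengths are from GENCODE M21 transcripts linked to RefSeq.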

Additional observations from a re-analysis of the deposited data

Results flagged for a closer look

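Of the up to 4 genes per list with the lowest joint p, those below differed between irradiated times by edgeR's test (adjusted p below 0.05). Their changes against unirradiated lung thus differ by time. Other list genes, named because they were called, were Blvrb (higher, day 8 to day 11) and Fdft1 (lower, day 11 to day 14). From day 8 to day 14 they were Bach1 and Sesn1 (higher) and Gss, Gpx7, Gsta4, Ephx1, Mboat2, Fdft1 and Alox5 (lower). Some of these calls were lost without single libraries. That of Bach1 was lost without day 8 replicate 1, 2 or 3 or day 14 replicate 1, 2 or 3, and with library size alone. That of Sesn1 was lost without day 8 replicate 1 or 3 or day 14 replicate 3, and in a fit of the 2 groups alone. Values are log2 differences. From day 8 to day 11 the difference was 1.22 for Hmox1, 0.82 for Ftl1, 0.87 for Fth1, 0.63 for Glrx and 0.53 for Gch1. The call of Hmox1 was lost without day 8 replicate 3 (adjusted p = 0.0736). Those of Ftl1 and Fth1 were lost without day 8 replicate 1 (0.0777 and 0.0804) or 3 (0.179 and 0.141) or day 11 replicate 1 (0.172 and 0.127), and that of Ftl1 also without day 14 replicate 1 (0.0523). Glrx and Gch1 were called under 8 and 4 of 21 alternatives. From day 8 to day 14 it was 0.72 for Hmox1, 0.98 for Ftl1, 0.88 for Fth1, 0.82 for Ncoa4, 0.67 for Sephs2, which makes the selenium donor, and 1.74 for Dpep2. It was negative for Mafk (-0.56), a small MAF partner of NRF2, Tfrc (-0.55), the transferrin receptor, Txnrd3 (-0.64), Dpep1 (-0.93) and Alox12 (-0.99). The call of Txnrd3 was lost without day 14 replicate 1 (adjusted p = 0.0836), and Dpep1 was called under 9 of 21 alternatives. The call of Sephs2 was lost without day 8 replicate 1 or 3 or day 14 replicate 3 (adjusted p = 0.0593, 0.0699 and 0.0615). From day 11 to day 14 it was -0.53 for Mafk, called under 10 of 21 alternatives, and -0.68 for Tfrc, whose call was lost without day 11 replicate 2 or day 14 replicate 1 (0.0702 and 0.0861). None of the 9 genes differed between times by this test.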

How the results depend on the processing

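Over 21 alternatives the calls of Srxn1, Txnrd1 and Gclc at all 3 times, of Slc7a11 on day 11 and of Acsl4 on day 11 and day 14 held, and no called change reversed. Of 1134 log2 changes of the 9 genes under an alternative, 16 lost and 4 gained a call. The joint test, which called 5 of the 9, called 4 without unirradiated replicate 2 and 6 with DESeq2. Beside the left-out libraries given above, Nfe2l2 lost its day 11 call with library size alone (adjusted p = 0.0792) and its day 11 and day 14 calls with no filter (0.0729 and 0.0673), and its day 14 call in a fit of the 2 groups alone (0.0528). Of the 9 genes 0 were called between times, but DESeq2 called 1 from day 8 to day 11 and 1 from day 11 to day 14. Over all genes DESeq2 called 868 in place of 353 and 827 in place of 296 in these comparisons, and a fit of only the 2 groups called 143 from day 8 to day 11. Leaving out 1 library in turn gave 2593 to 3997 calls on day 8, 2 to 545 from day 8 to day 11 (2 without day 8 replicate 3), 13 to 681 from day 11 to day 14 (13 without day 14 replicate 1) and 1392 to 2599 from day 8 to day 14. Scaling by library size alone gave 2438 higher and 1352 lower on day 8 in place of 2139 and 1752, and 186 and 121 from day 8 to day 11 in place of 288 and 65. The labels give the groups the same replicate numbers, which were not taken to pair samples. Deviations of same-numbered libraries correlated over 0.1 in only 4 of 18 pairs (-0.35 to 0.29). On the other hand, 8 of 12 libraries were nearest to a library of their own number. These values do not settle whether the numbers pair samples, so results with a replicate block are given as well. With the replicate block 3704, 5921 and 6288 genes were called on days 8, 11 and 14, 391, 425 and 2476 between times, and 1 of the 9, Slc7a11 from day 8 to day 11 (adjusted p = 0.04).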
